A study of Mus musculus with 3 samples.

Results

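The 8 genes described here, H19, Igf2, Meg3, Dlk1, Peg3, Mest, Cdkn1c and Grb10, are imprinted genes known for their part in growth, and they are 8 of the 50507 genes in the count table. They were listed by name, with no measured value in the rule, but with earlier results of these data known. The study screened chromatin and transcription regulators for a role early in the reprogramming of fibroblasts from mouse embryos (MEFs). All cells were primary MEFs of wild-type BL6 mice at passage 2, transduced with lentiviruses that carried rtTA and the doxycycline-inducible tet-STEMCCA cassette (Oct4, Sox2, Klf4 and c-Myc). Reprogramming medium with doxycycline, the GSK3 inhibitor chiron, an Alk5 inhibitor, ascorbic acid and LIF was common to all induced groups. Transfection came before induction, with 3 kinds of input: siRNAs pooled against a single gene, for 33 genes, a control siRNA without a target (nt) and no siRNA (Mock). The RNA of transfected cells was read as that of day 6. Untransfected cells made a time course of 7 days, Day00 to Day06.

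RNA was profiled by CEL-Seq2, which here counts the 3′ ends of transcripts in bulk RNA through unique molecular identifiers (UMIs). Of the 127 libraries analysed, 98 carried an siRNA against a gene, 21 came from the time course, and nt and Mock gave 3 and 5. The other groups had 3 libraries, 1 from each of 3 replicates, except siMtf1 with 2. The labels give 1 sample per replicate, read here as 1 sequenced pool. The siRNAs were transfected in triplicate, whereas no source used here says that the replicates came from separate MEF preparations, so p-values measure the spread between transfections and libraries and may not cover that between preparations. Libraries held 29656 to 235292 counts. Levels are CPM, counts scaled to a common total of the tested genes after TMM scaling, and given as mean ± SD over libraries, and differences are log2 fold changes ± SE from edgeR with Benjamini-Hochberg adjusted p. The siRNA targets were not lower in their own libraries beyond counting error, at day 6, and no earlier day of the transfected cells was analysed here. Over the 33 targets, 369 counts were found in their own knockdowns where 391.2 were expected from the other transfected libraries, and 23 targets lay under their expected count. For 0 targets did the 95% counting interval of the ratio lie under 1, and for 1, Hdac1, it lay above (18 counts against 9.83, ratio 1.83, 1.08 to 2.89). Only 8 targets had 10 or more expected counts, and for the other 25 a decrease was hard to detect. Depth was not the limit for Hat1, with 106 counts where 96.2 were expected (ratio 1.10, 0.902 to 1.33). A knockdown below therefore means the libraries labelled with that siRNA.

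An imprinted gene is expressed mainly from the copy inherited from one parent, under the control of a nearby region whose DNA methylation is set in the germ line. Paternally expressed genes of this group tend to promote fetal growth and maternally expressed ones to restrain it. Igf2 encodes insulin-like growth factor 2, the ligand of this group, and is transcribed from the paternal copy. H19, a maternally expressed long noncoding RNA, lies beside it and shares its enhancers. Dlk1, a paternally expressed transmembrane protein related to Notch ligands, and Meg3, a maternally expressed noncoding RNA, form a comparable pair. Peg3 is a zinc finger protein and Mest a hydrolase-like protein, both paternally expressed. Cdkn1c (p57) inhibits cyclin-dependent kinases and Grb10 is an adaptor that dampens insulin and IGF receptor signalling, and both are maternally expressed in most tissues. Fibroblasts of mid-gestation embryos are a known source of several of these transcripts. The counts do not separate the parental copies.

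On GRCm38, the build named for these data, H19 lies at chr7:142575529-142578143 and Igf2 at chr7:142650766-142666816, both on the minus strand and 72.6 kb apart. Cdkn1c, at chr7:143458339-143461050, lies 791.5 kb from Igf2 on the same chromosome, and Peg3 lies at chr7:6703892-6730431, both on the minus strand. Dlk1, at chr12:109452823-109463336, and Meg3, at chr12:109541001-109571726, lie 77.7 kb apart on the plus strand. Mest spans chr6:30723547-30748465 on the plus strand and Grb10 chr11:11930508-12038683 on the minus strand. Exons of Mest overlap those of Copg2 on the opposite strand, to which 135 counts were assigned, and whether the counting used strand is not given in the sources used here.

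H19 and Igf2 carried 13 of the 14 calls of single knockdowns against nt, a number that depends on the model, as given below. Over all genes 2.57% of these comparisons were called. Both genes also give rise to microRNAs. Their mature RefSeq sequences follow, 5′ to 3′, with the seed (bases 2 to 8) in capitals. The miR-675 arms lie in an exon of H19 and the miR-483 arms in an intron of Igf2, and the 3′ end counts of the host transcripts give no level for them. None of the 4 seeds is shared.
mmu-miR-675-5p: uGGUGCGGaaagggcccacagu
mmu-miR-675-3p: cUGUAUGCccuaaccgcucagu
mmu-miR-483-5p: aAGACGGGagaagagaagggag
mmu-miR-483-3p: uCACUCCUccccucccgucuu

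Peg3 and Grb10 were called lower than at day 0 on each day from day 2 on. So was Meg3, which passed the low-count filter only through day 0. The 250 bases before a RefSeq start of each are shown on the strand of the gene, with CG dinucleotides, the sites of DNA methylation, in capitals. The Peg3 window is chr7:6730420-6730669 (minus strand, 8 CG), the Meg3 window chr12:109540746-109540995 (plus strand, 10 CG) and the Grb10 window chr11:12037421-12037670 (minus strand, 40 CG). The median over 32851 such windows was 6 CG. A count of 40 or more was found in 1.31% of them, of 10 or more in 37.8% and of 8 or more in 43.0%. Grb10 and Meg3 have another RefSeq window each, with 8 and 0 CG, so that the windows of 1 gene differ widely. The Meg3 window holds the letters TATAAA 25 bases before the start, and the windows of Peg3 and Grb10 do not hold them. Of all windows 12.4% hold them at any place on either strand. RefSeq windows were found for 6 of the 8 members, 4 of them for Igf2, 3 for Mest and 2 each for Grb10 and Meg3, and 3′ end counts do not tell which start a transcript used.
Peg3: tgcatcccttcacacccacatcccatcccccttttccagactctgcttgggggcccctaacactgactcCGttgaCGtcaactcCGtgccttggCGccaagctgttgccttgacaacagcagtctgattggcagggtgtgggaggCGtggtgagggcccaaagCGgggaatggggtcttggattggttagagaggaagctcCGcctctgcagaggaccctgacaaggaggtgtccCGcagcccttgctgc
Meg3: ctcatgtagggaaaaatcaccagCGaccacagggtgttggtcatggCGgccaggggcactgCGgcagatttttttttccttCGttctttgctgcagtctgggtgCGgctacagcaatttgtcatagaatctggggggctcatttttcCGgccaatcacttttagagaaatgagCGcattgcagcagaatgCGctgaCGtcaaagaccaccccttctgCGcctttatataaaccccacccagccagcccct
Grb10: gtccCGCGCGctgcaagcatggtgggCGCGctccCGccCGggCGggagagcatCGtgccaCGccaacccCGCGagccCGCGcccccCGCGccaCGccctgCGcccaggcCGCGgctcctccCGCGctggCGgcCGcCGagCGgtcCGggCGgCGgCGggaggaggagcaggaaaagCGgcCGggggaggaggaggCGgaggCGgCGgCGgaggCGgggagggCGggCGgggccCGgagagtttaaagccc

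Over the 127 libraries H19 gave 8647 counts, Igf2 2030, Peg3 1313, Grb10 1263, Meg3 517, Cdkn1c 484, Mest 83 and Dlk1 21. H19 and Igf2 had a count in every library, Peg3 and Grb10 in 126, Cdkn1c in 116 and Meg3 in 114. Mest was detected in 56 libraries and Dlk1 in 19, with at most 5 and 2 counts in a library. The low-count filter passed 5 members, H19, Igf2, Meg3, Peg3 and Grb10, among 3013 genes. Meg3 passed it only through the 3 libraries of day 0, since no other library reached the 136.5 CPM that the filter asked for, so that among genes kept by it Meg3 had to stand lower on later days, and it is left out of the counts of members for the time course. The other 4 passed through libraries of several conditions. Cdkn1c, Mest and Dlk1 were tested in a second fit of 16129 genes and were called in 0 comparisons, so that a change in Mest or Dlk1 was hardly detectable at this depth.

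In the time course, which asks how each gene moved as the fibroblasts were reprogrammed, Meg3, Peg3 and Grb10 were lower at day 6 than at day 0, while the differences of Igf2 and H19 from day 0 to day 6 did not pass the test. Of the 4 members other than Meg3, 2 were called at day 6, both lower, where 22.2% of all tested genes were called and 11.5% were called lower. Tested over all days at once, these 4 varied, as did 42.5% of the genes, and without the replicate term 2 of the 4 did (Igf2 and Peg3).

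Meg3 stood at 287, 402 and 281 CPM in the libraries of replicates 1, 2 and 3 at day 0 and at 14.8, 18.1 and 20.4 CPM at day 6. The groups did not overlap, and the day 6 libraries rested on 5 counts in all, against 67 at day 0. The log2 fold change was -3.98 ± 0.62 (edgeR, adjusted p = 2.96e-08). In the second fit, whose filter of 10 counts over all libraries does not ask for a high group, it was -3.85 (edgeR, adjusted p = 4.67e-09). Meg3 was already lower at day 1, by -2.13 ± 0.51 (edgeR, adjusted p = 0.00122). That value is from the main fit, which Meg3 entered only through day 0. At day 1, 9.89% of genes were called, Peg3 among them. From day 1 to day 5 its means lay between 32.1 and 74.0 CPM and the libraries of these days overlapped.

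Peg3 fell from 677, 551 and 745 CPM at day 0 to 134, 163 and 198 CPM at day 6, with every day 6 library below every day 0 library, as held for 16.4% of all tested genes. The log2 fold change was -1.95 ± 0.30 (edgeR, adjusted p = 2.96e-08). Its course was not steady. The mean was 657.6 ± 98.7 CPM at day 0, 232.9 ± 76.6 at day 1, 342.0 ± 52.4 at day 3 and 70.7 ± 41.8 at day 5 (SD, n = 3 each), so that the largest difference from day 0 was at day 5, -3.05 ± 0.34 (edgeR, adjusted p = 4.9e-15). Libraries of days 1, 2 and 3 overlapped with each other, those of day 4 overlapped with days 5 and 6, and those of day 5 lay below those of day 6.

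Grb10 measured 328, 296 and 480 CPM at day 0 and 119, 253 and 116 CPM at day 6, without overlap. The log2 fold change was -1.41 ± 0.32 (edgeR, adjusted p = 0.000287). The decrease was the least firm of the 3: with limma on the deposited log2 values it was -1.20 (adjusted p = 0.12), and without replicate 3, which held the highest day 0 library, it was -0.87 (edgeR, adjusted p = 0.209). At days 2, 3 and 4 Grb10 was called lower together with Peg3, where 11.6%, 10.9% and 18.7% of genes were called. Meg3 was also called on these days, in the fit that it entered only through day 0. Its day means from day 1 to day 4 lay between 210.0 and 221.1 CPM, closer together than their libraries.

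Igf2 took another course. Its libraries held 472, 318 and 364 CPM at day 0, 682, 452 and 466 at day 3, 381, 618 and 537 at day 4, 254, 173 and 225 at day 5 and 282, 235 and 307 at day 6. Day 0 overlapped with days 1 to 4, and days 5 and 6 overlapped with each other and lay below day 0. The decrease was called at day 5, at -0.80 ± 0.30 (edgeR, adjusted p = 0.0299), where 31.9% of genes were called. Peg3 and Grb10 were lower as well, and so was Meg3 in the fit that it entered only through day 0. At day 6 the difference from day 0 was -0.42 ± 0.29 (95% interval -1.0 to 0.15, edgeR, adjusted p = 0.326).

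H19 had its highest day mean at day 2, 1245 ± 145 CPM, and its lowest at day 1, 575 ± 173 CPM (SD, n = 3 each). All 3 libraries of day 2 (1286, 1366 and 1085 CPM) lay above all 3 of day 1 (390, 733 and 603 CPM), the day before. Against day 0, where replicate 2 stood at 1228 CPM and the others at 595 and 753, no single day was called, and the test over all days was (edgeR, adjusted p = 0.00121). At day 6 the difference was -0.22 ± 0.24 (95% interval -0.70 to 0.26, edgeR, adjusted p = 0.577), and it was 0.04 without replicate 2.

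Cdkn1c, which passed only the second filter, measured 164, 106 and 124.2 CPM at day 0 and 14.8, 18.1 and 61.4 CPM at day 6, with every library of days 1 to 6 below every library of day 0. Its log2 fold change at day 6 was -1.54 ± 0.57 and did not pass the test over 16129 genes (edgeR, adjusted p = 0.137). Mest gave 3 counts at day 0 and 3 at day 6 over 3 libraries each. Dlk1 gave 0 counts at both, which allows up to 13.8 CPM at day 0 and 11.1 CPM at day 6 by a floor of 3 counts over each group.

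**Figure D1:**
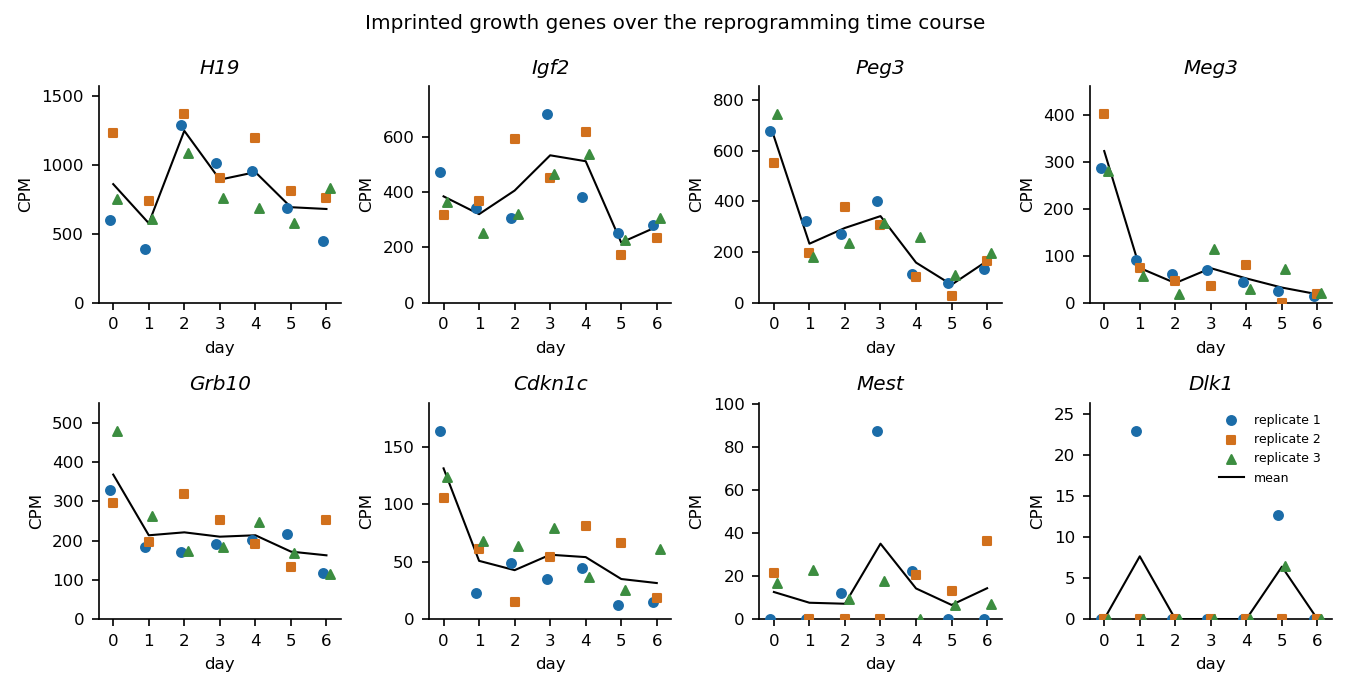
Level of each of the 8 members in each library of the time course, in CPM (y axis, own scale per gene) against day (x axis), with the replicates as points and the day mean as a line. Meg3 drops from 324 to 74.0 CPM in mean by day 1, Peg3 falls to 232.9 CPM at day 1, stands at 342.0 CPM at day 3 and is lowest at day 5 with 70.7 CPM, Igf2 is highest at days 3 and 4, and Mest and Dlk1 stay at a few counts.

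The fibroblast identity of the cells moved over the same days. The summed level of 12 fibroblast markers, all detected at day 0, was 4988 to 6437 CPM at day 0 and 1943 to 2537 CPM at day 6. Of the 9 tested markers 6 were lower at day 6, and 1, the proteoglycan Lum, was higher at 3.67 ± 0.86 (edgeR, adjusted p = 0.000389). The 6 include the matrix protein Postn at -4.67 ± 0.62. It also passed the filter only through day 0, so that it had to stand lower on later days and its call adds nothing to the count. Markers of epithelial cells summed to 24.8 to 63.5 CPM at day 0 and 103.9 to 307.3 CPM at day 6, and markers of pluripotency to 0 to 21.2 and 27.3 to 126.5 CPM. Markers of blood and macrophages went from 124.1 to 205.3 CPM at day 0 to 18.1 to 89.0 CPM at day 6, carried by Lyz2. Endothelial and skeletal muscle markers held 1 count each at day 0 and at most 1 at day 6. The 5 neural markers held 1 count at day 0 and 17 at day 6 (54.2 to 68.2 CPM), all of the latter from Stmn2, a tubulin-binding protein, which was higher at 3.35 ± 1.00 (edgeR, adjusted p = 0.0070), while Sox10, Elavl3, Dcx and Gfap were at 0 at both. In bulk RNA fewer cells of a type and less RNA per cell cannot be told apart, and the part of these markers' cells in the members' decrease was not tested.

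The 2 kinds of transfected control were compared next. Mock and nt did not differ in any member at the threshold: 0 of 5 were called, where 1.56% of genes were, and 2 members had an unadjusted p under 0.05 in edgeR and in DESeq2 and 1 in limma, which also called 0. Igf2 measured 99.9, 89.7 and 73.5 CPM in nt and 68.7 to 317.1 CPM (median 154.8) in the 5 Mock libraries, a log2 difference of 1.09 ± 0.42 (95% interval 0.26 to 1.92, edgeR, adjusted p = 0.192). H19 measured 849, 1092 and 539 CPM in nt and 567.7 to 1923 CPM (median 1192) in Mock, a difference of 0.55 ± 0.22 (edgeR, adjusted p = 0.234). The Mock and nt libraries overlapped in both genes, and each comparison of a knockdown with nt below shares the same nt libraries.

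Against untransfected cells of day 6, the nt control had less Igf2 and Peg3. Igf2 was at 282, 235 and 307 CPM in Day06, all above the 3 nt libraries, and the log2 difference of nt from Day06 was -1.73 ± 0.38 (edgeR, adjusted p = 0.000177). Peg3 was at 50.0, 59.8 and 89.9 CPM in nt and 134, 163 and 198 CPM in Day06, at -1.24 ± 0.44 (edgeR, adjusted p = 0.0249). These were 2 of 5 members, both lower, where 26.6% of genes were called. The Peg3 call rested on the settings: its adjusted p was 0.0598 without the replicate term and 0.0740 to 0.133 without any one replicate. The fibroblast markers summed to 1176 to 1832 CPM in nt, below Day06, and their part in these differences was not tested. H19, Meg3, Grb10 and Cdkn1c were not called between nt and Day06, with 95% intervals of -0.37 to 0.58 for H19 and -0.78 to 0.71 for Grb10.

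Among the knockdowns, H19, Igf2 and Peg3 varied more than replicates did when nt and all 33 siRNAs were tested at once (edgeR, adjusted p = 1.11e-19, 1.23e-17 and 3.16e-09), as did 44.8% of genes. Grb10 had an adjusted p of 0.0930, and was called with RLE size factors and with DESeq2, and Meg3 had one of 0.540. Set against nt one siRNA at a time, the 5 members gave 165 tests and 14 calls, all of them higher in the knockdown, spread over 10 siRNAs. Over all genes 2.57% of the same comparisons were called and 1.29% were called higher. Igf2 was called in 7 knockdowns, H19 in 6 and Peg3 in 1, and Meg3 and Grb10 in 0, with 0 and 2 at an unadjusted p under 0.05. The number of calls was 15 with RLE size factors, 10 with DESeq2, 3 without the replicate term and 3 with limma on the deposited log2 values, and 10 with nt and Mock together as control. Igf2 in siWdr5 and in sip53 was called in each of these settings.

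In siWdr5, the knockdown of a core subunit of the histone H3 lysine 4 methyltransferase complexes, 3 of the 5 members were higher than in nt, where 27.2% of genes were called and 12.2% were higher. Igf2 reached 343, 682 and 683 CPM against 99.9, 89.7 and 73.5 in nt, and no other knockdown had a higher mean. The log2 fold change was 2.73 ± 0.34 (95% interval 2.06 to 3.40, edgeR, adjusted p = 5.25e-12), and over the alternative settings it lay between 2.10 and 3.05. Peg3 measured 251, 227 and 351 CPM against 50.0, 59.8 and 89.9, at 1.95 ± 0.40 (edgeR, adjusted p = 5.8e-05). H19 measured 1308, 2075 and 1187 CPM against 849, 1092 and 539, at 0.91 ± 0.22 (edgeR, adjusted p = 0.000829, and 0.0858 without the replicate term). All siWdr5 libraries lay above all nt libraries for these 3 genes and for Grb10, whose difference of 0.51 ± 0.36 was not called, and so they did for 17.1% of all tested genes. Meg3 differed by 1.12 ± 0.62 (edgeR, adjusted p = 0.170), Cdkn1c by 1.26 ± 0.62 in the second fit (edgeR, adjusted p = 0.368), and Mest had 0 counts in siWdr5 and 2 in nt. RLE size factors moved the median of all genes in this comparison by 0.17 on the log2 scale, and the 3 calls held. With limma on the deposited log2 values only Igf2 was called, and Peg3 and H19 were not.

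The siWdr5 libraries also held more of the fibroblast markers, 3553 to 4300 CPM in sum against 1176 to 1832 in nt. Of the 9 tested markers 6 were higher, among them the collagen genes Col1a1 at 2.67 ± 0.27 and Col1a2 at 2.05 ± 0.23. Epithelial markers summed to 52.8 to 113.7 CPM in siWdr5 and 149.6 to 155.2 in nt, and pluripotency markers to 26.4 to 42.6 and 44.9 to 166.5 CPM. Whether the members' levels in siWdr5 follow from the share of fibroblast-like cells was not tested.

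Igf2 and H19 rose together in sip53, the knockdown of the tumour suppressor p53, where 1.96% of genes were called. Igf2 was at 420, 485 and 404 CPM, above nt by 2.33 ± 0.38 on the log2 scale (edgeR, adjusted p = 5.13e-06). H19 was at 2079, 2909 and 1129 CPM, the highest mean among the knockdowns, at 1.28 ± 0.23 (edgeR, adjusted p = 3.84e-05, and 0.108 without the replicate term). Cdkn1c was also highest here, at 147, 143 and 139 CPM with 22 counts in all, against 0, 14.96 and 65.4 CPM in nt, and its difference of 1.85 ± 0.62 did not pass the second fit (edgeR, adjusted p = 0.350). The fibroblast markers summed to 2299 to 3171 CPM in sip53 and the epithelial markers to 210.0 to 313.7 CPM, both above all nt libraries, and pluripotency markers to 21.0 to 57.0 CPM, and their part was not tested.

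Both genes were also called in siKmt2d, the knockdown of a histone H3 lysine 4 methyltransferase, where 0.962% of genes were. Igf2 measured 270, 307 and 257 CPM, at 1.67 ± 0.37 (edgeR, adjusted p = 0.00253), and H19 1214, 2249 and 905 CPM, at 0.80 ± 0.22 (edgeR, adjusted p = 0.0441). Without the replicate term neither passed, with adjusted p of 0.0558 and 0.572. The Igf2 call was kept with Mock added to the control (1.05, edgeR, adjusted p = 0.0166) and lost without replicate 2 or 3 (adjusted p = 0.0545 and 0.121). That of H19 was kept in 4 of 11 alternatives and was 0.47 with Mock added (edgeR, adjusted p = 0.137).

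Igf2 alone was called in 4 further knockdowns. It was at 1.61 ± 0.38 in siIrx1 (2.02% of genes called, edgeR, adjusted p = 0.00477), with libraries of 267, 305 and 227 CPM. In siCdk1 it was at 1.57 ± 0.40 (2.59% of genes called, edgeR, adjusted p = 0.00816), with 282, 265 and 232 CPM. The fibroblast markers of siCdk1 summed to 1991 to 2384 CPM, also above all nt libraries, and their part was not tested, while those of siIrx1 and siPrkdc overlapped with nt. For siPrkdc, against a kinase of DNA repair, the value was 1.50 ± 0.42 (1.76% of genes called, edgeR, adjusted p = 0.0252), with 160, 374 and 208 CPM. Every library of these knockdowns lay above every nt library. None of the 3 calls held in edgeR without the replicate term (adjusted p = 0.0599 to 0.171), and none did with Mock added to the control (adjusted p = 0.0653 to 0.131). The remaining one is siBard1, described below.

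H19 alone was called in siTdrd7, siHat1 and siPhf1, where 0.232%, 0.398% and 1.92% of genes were called. In siTdrd7 it measured 2792, 1585 and 960 CPM, at 1.10 ± 0.23 (edgeR, adjusted p = 0.0019). Replicate 1 carries the highest of these values, and without replicate 1 the difference was 0.67 (edgeR, adjusted p = 0.80). For siHat1, against a histone acetyltransferase whose own transcript was not lower in these libraries, H19 was at 1677, 1415 and 1142 CPM, at 0.84 ± 0.22 (edgeR, adjusted p = 0.0399), and for siPhf1, against a Polycomb-associated protein, at 1444, 1951 and 979 CPM, at 0.83 ± 0.23 (edgeR, adjusted p = 0.0244). With DESeq2 the adjusted p of the 3 was 0.135 to 0.334, and without the replicate term 0.594 to 0.999, so that these calls depend on the model.

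**Figure D2:**
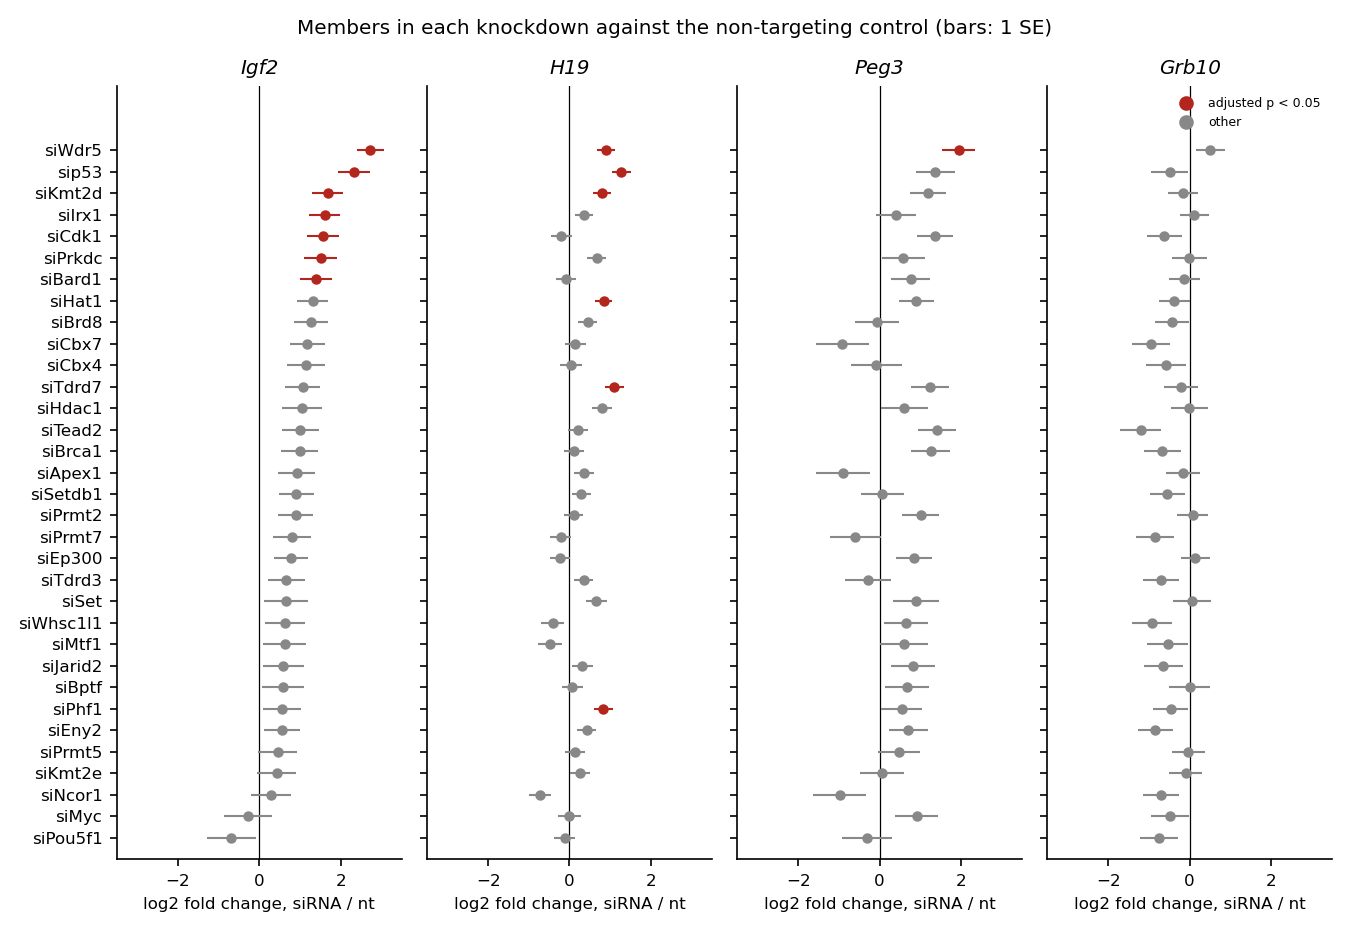
Log2 fold change of Igf2, H19, Peg3 and Grb10 (x axis) in each of the 33 knockdowns against nt (rows, ordered by Igf2), with bars of 1 SE and calls at an adjusted p under 0.05 in red. The 14 calls lie to the right of 0, Igf2 lies above 0 in 31 of 33 knockdowns, and Grb10 lies below 0 in 27.

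All 33 comparisons share the 3 nt libraries. Fitted Igf2 was above nt in 31 of 33 knockdowns, while over all genes 48.97% of fitted values were above 0. Every library lay above every nt library in 18 knockdowns for Igf2, in 13 for Peg3, in 4 for H19, in 1 for Grb10 and in 0 for Meg3, and over all tested genes this held for 6.78% of the comparisons. Every library lay below every nt library in 4 knockdowns for Grb10, in 2 for Peg3, in 1 for Igf2 and in 0 for H19 and Meg3, beside 7.64% over all tested genes. The mean of Igf2 exceeded that of Mock in 11 knockdowns and that of untransfected Day06 in 3. For H19 24 knockdowns lay above nt in the mean and 9 above Mock, and for Peg3 25 above nt and 23 above Mock. Grb10 went the other way, with 27 fitted values below nt, a median of -0.46 and none called. Measured against nt and Mock together, 7 of the 14 calls against nt were kept and 7 were lost. With that control 3 others were gained in edgeR, namely H19 in siNcor1, which was lower (-1.05, adjusted p = 0.0030), Meg3 in siWdr5 (1.48, adjusted p = 0.0265) and Peg3 in siCdk1 (1.25, adjusted p = 0.0293), both higher.

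The spread across knockdowns ran from 53.3 CPM of Igf2 in siPou5f1 to 569.7 CPM in siWdr5. The siPou5f1 libraries, of the siRNA against the reprogramming factor Oct4, held 67.5, 47.3 and 45.1 CPM of Igf2, all below nt, and the difference of -0.69 was not called. H19 ran from 506.3 CPM in siNcor1 to 2039 in sip53, and Peg3 from 33.9 CPM in siNcor1 to 276.5 in siWdr5. Ncor1 is a subunit of a corepressor complex. Grb10 ran from 68.2 CPM in siTead2 to 215.7 in siWdr5 and Meg3 from 20.5 CPM in siPrmt7 to 102.8 in sip53. The siPou5f1 libraries also had the lowest sum of fibroblast markers among the conditions, 756.8 to 855.4 CPM.

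The study set Wdr5 beside Brca1 and Bard1, partners in a ubiquitin ligase of DNA repair. In siBard1, where 10.3% of genes were called, 1 of 5 members was: Igf2 at 208, 171 and 257 CPM, a log2 fold change from nt of 1.39 ± 0.40 (edgeR, adjusted p = 0.0103). That edgeR call was lost without the replicate term (adjusted p = 0.0525), without replicate 3 (adjusted p = 0.385) and with Mock added to the control (adjusted p = 0.0918). In siBrca1, where 4.22% of genes were called, edgeR, DESeq2 and limma called 0 members, with 2 at an unadjusted p under 0.05 in each. Igf2 was at 145, 228 and 153 CPM there, at 0.99 ± 0.45 (95% interval 0.11 to 1.88, edgeR, adjusted p = 0.236), and Peg3 at 165, 160 and 188 CPM, at 1.26 ± 0.47 (95% interval 0.33 to 2.18, edgeR, adjusted p = 0.114). Every siBrca1 library lay above every nt library for both genes, as for 8.23% of all tested genes.

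Tested directly, siWdr5 stood above both partners. Igf2 was higher in siWdr5 than in siBard1 by 1.34 ± 0.28 (edgeR, adjusted p = 0.000145) and than in siBrca1 by 1.73 ± 0.32 (edgeR, adjusted p = 1.8e-05). H19 was at 687, 840 and 680 CPM in siBard1 and 641, 1094 and 801 CPM in siBrca1, below all siWdr5 libraries, with differences of 0.98 ± 0.22 and 0.80 ± 0.23 (edgeR, adjusted p = 0.000606 and 0.0124). Peg3 was higher than in siBard1 by 1.19 ± 0.36 (edgeR, adjusted p = 0.0199), and its difference from siBrca1 was 0.69 ± 0.37 (95% interval -0.03 to 1.41, edgeR, adjusted p = 0.253). These are 3 of 5 members against siBard1 and 2 of 5 against siBrca1, where 8.36% and 9.99% of genes were called. In edgeR without the replicate term the H19 and Peg3 differences did not pass (adjusted p = 0.0951 to 0.221) and those of Igf2 did. With limma on the deposited log2 values none of these 5 differences passed, Igf2 standing at 1.09 against siBard1 (adjusted p = 0.634) and at 0.90 against siBrca1 (adjusted p = 0.644). In edgeR both H19 differences were also lost without replicate 2 (adjusted p = 0.0661 and 0.149), and that of Peg3 without replicate 3, where it was 0.76 (adjusted p = 0.445). The Peg3 difference was lost as well in the second fit, with its lower filter.

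Between siBrca1 and siBard1, edgeR, DESeq2 and limma called 0 members, with 0 at an unadjusted p under 0.05, where 0.863% of genes were called. The intervals are wide: -1.13 to 0.33 for Igf2, -0.31 to 0.68 for H19 and -0.34 to 1.32 for Peg3. The fibroblast markers summed to 1799 to 2890 CPM in siBard1 and 1960 to 2666 CPM in siBrca1, with means (2329 and 2292 CPM) between those of nt (1436 CPM) and siWdr5 (4025 CPM), and with 3 and 2 of 9 called higher than in nt.

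**Figure D3:**
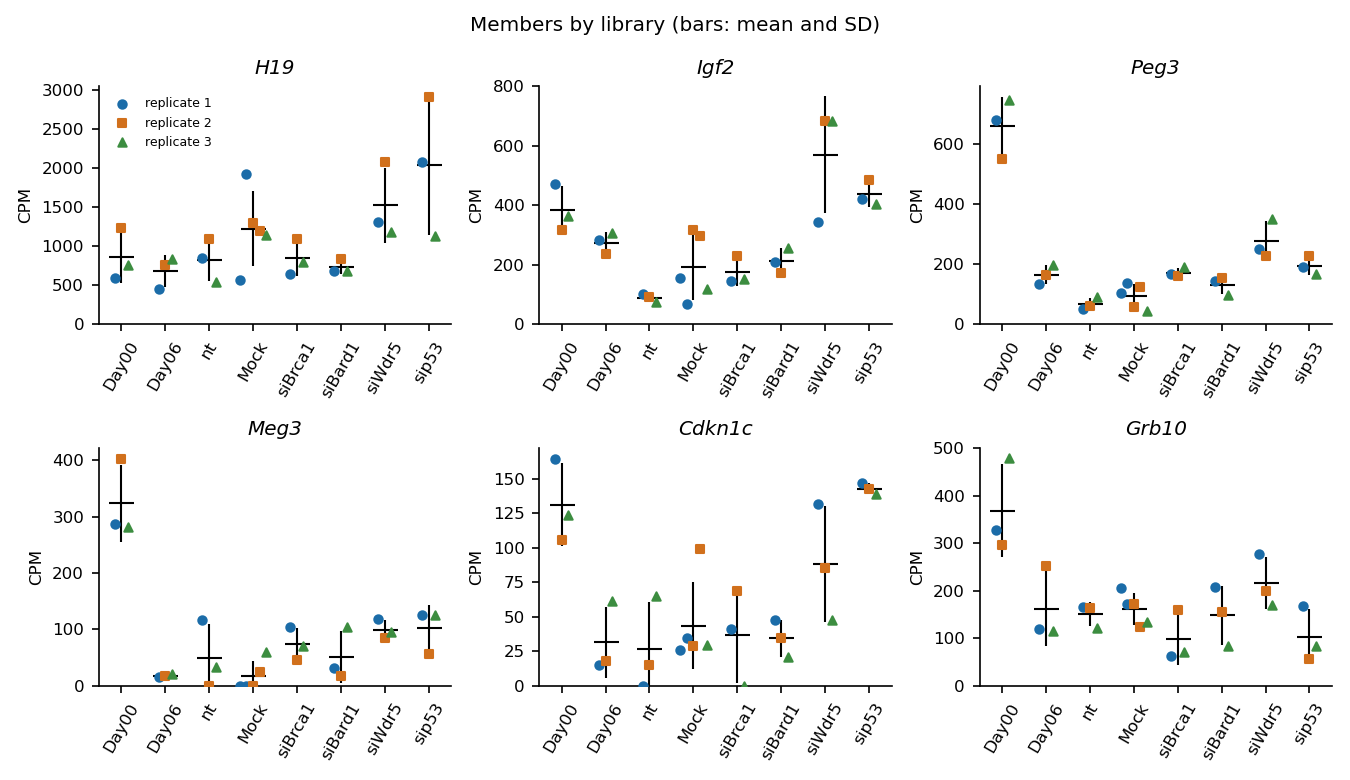
Level of 6 members in CPM (y axis, own scale per gene) in each library of Day00, Day06, nt, Mock, siBrca1, siBard1, siWdr5 and sip53 (x axis), with points by replicate and bars for mean and SD. Igf2 in siWdr5 and sip53 lies above all nt and Mock libraries, and Meg3 and Peg3 are highest at day 0.

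H19 and Igf2 share enhancers, so their counts were also set against each other within a library, which does not depend on scaling. Igf2 made 9.95% of the Igf2 and H19 counts in nt (21 of 211, exact 95% binomial interval 6.27 to 14.8%, counting error only) and 13.6% in Mock (9.85 to 18.1%). In the time course the share was 31.5% at day 0 (25.9 to 37.6%), 37.6% at day 3 and 28.4% at day 6 (23.1 to 34.2%). Among the knockdowns it was highest in siWdr5, 28.3% (24.5 to 32.4%), followed by siCdk1 at 27.4% and siBard1 at 24.0% (18.8 to 29.8%), and lowest in siPou5f1, 6.82% (3.17 to 12.6%). In sip53, where both genes were higher, the share was 18.97% (14.98 to 23.5%), and in siPhf1, where H19 was called and Igf2 was not, it was 8.33% (5.52 to 11.97%). By library it ran from 7.59 to 12% in nt and from 20.8 to 36.5% in siWdr5, without overlap. This was not particular to siWdr5. The libraries of siCdk1 (24.3 to 30.7%), siIrx1 (18.8 to 24.8%), siBard1 (16.95 to 27.4%) and further knockdowns also lay above all nt libraries.

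**Figure D4:**
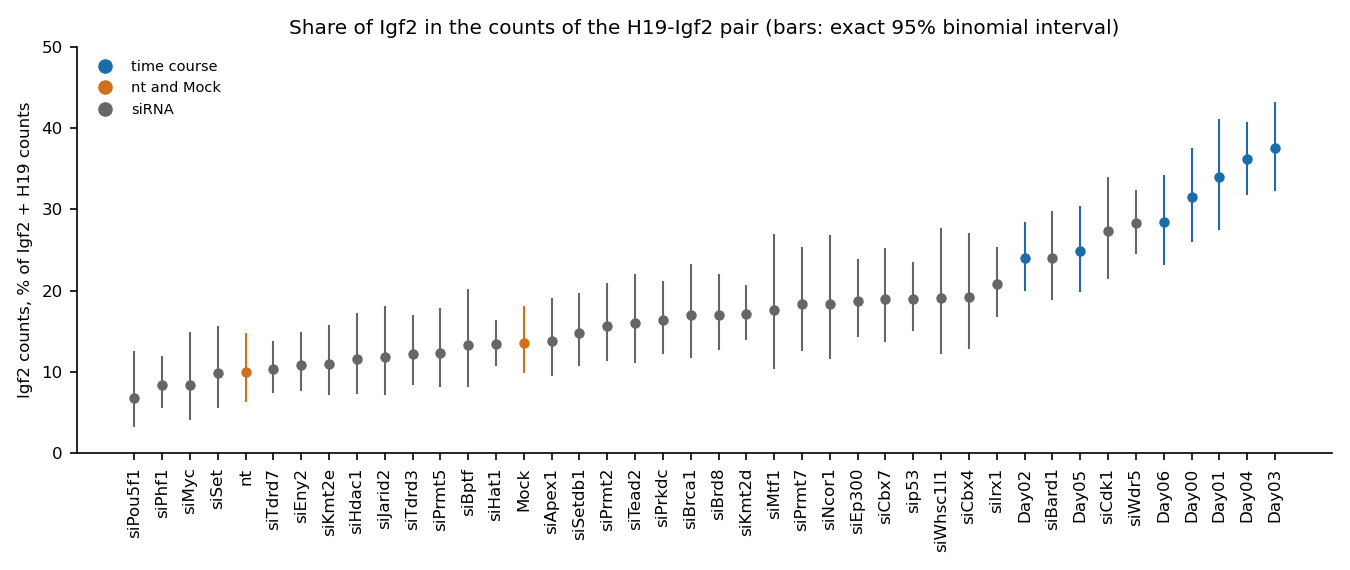
Igf2 counts as a percentage of Igf2 plus H19 counts (y axis) in each of 42 conditions (x axis, ordered), summed over libraries, with exact 95% binomial intervals for counting error. The time course points lie at the upper end, from 24.0% at day 2 to 37.6% at day 3, and nt, at 9.95%, is among the lowest 5 conditions.

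Which genes had the most similar pattern was read over the 42 condition means of log2 CPM among 3473 genes with at least 400 counts. The conditions share sequenced pools and a range of depths, and the correlations are a description. Igf2 was most like Col1a1 (r = 0.80), the cadherin gene Cdh11 (0.80) and Nedd4 (0.79), and Peg3 most like Cdh11 (0.79), Atxn10 (0.78) and the collagen gene Col4a1 (0.77). For Meg3 they were Wisp1 (0.72), Itm2c (0.69) and Col5a2 (0.68). H19 had no close neighbour, with Kcnq1ot1, an imprinted noncoding RNA of the Cdkn1c domain, first at 0.55, Gm15542 at 0.54 and Cdkn1c at 0.50. Cdkn1c was most like Zfp644 (0.53), and 2 other members, Peg3 (0.52) and Meg3 (0.50), came next. Grb10 was most like Gm8464, Gm4750 and Gm17087 (0.76 to 0.79).

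With the summed fibroblast markers the condition means of Igf2 correlated at r = 0.70, those of Peg3 at 0.60, of Grb10 at 0.48, of Meg3 at 0.47, of Cdkn1c at 0.32 and of H19 at 0.05. Over nt and the 33 siRNAs alone, 34 conditions without Mock, r was 0.64 for Igf2, 0.37 for Peg3, 0.33 for Meg3, 0.19 for Cdkn1c, 0.17 for H19 and 0.12 for Grb10. Among the members themselves, Igf2 and Peg3 (0.63) and Meg3 and Peg3 (0.63) were the closest pairs over all conditions, and H19 and Cdkn1c (0.60) over nt and the siRNAs. H19 and Igf2 correlated at 0.31 over all conditions and at 0.53 over nt and the siRNAs.

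**Figure D5:**
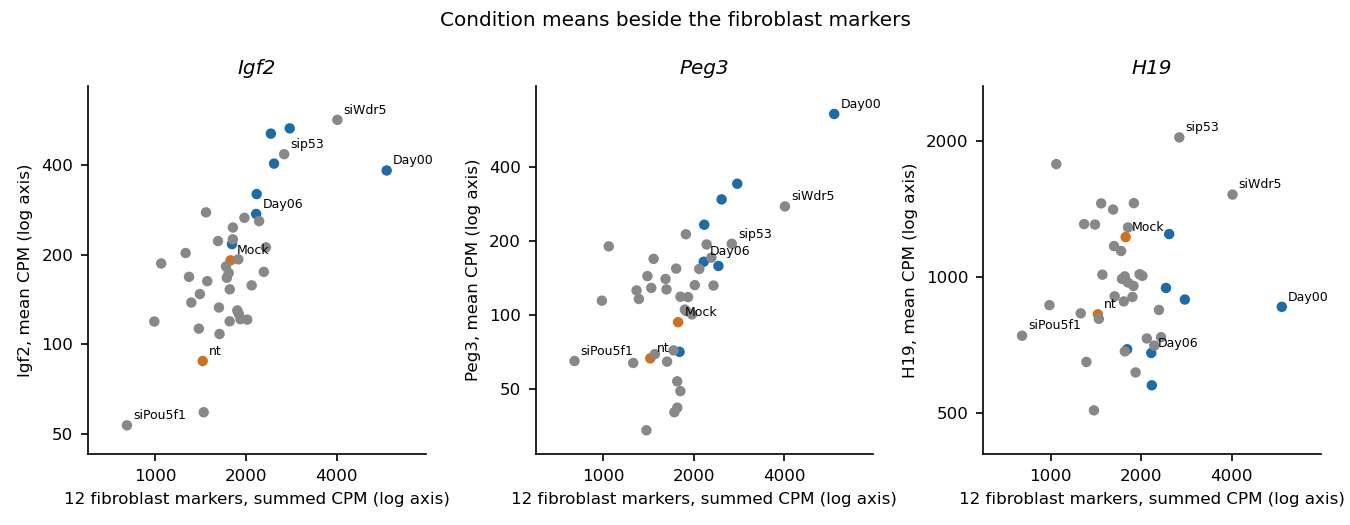
Condition means of Igf2, Peg3 and H19 in CPM (y axis, log) against the summed CPM of 12 fibroblast markers (x axis, log), for the time course (blue), nt and Mock (orange) and the 33 knockdowns (grey). Igf2 and Peg3 are higher where the markers are higher (r = 0.70 and 0.60 over 42 conditions), and H19 shows no such relation (r = 0.05).

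Other imprinted genes were followed as a list of 53, of which 12 passed the filter. At day 6 against day 0, 4 were lower, namely Ndn (-1.72 ± 0.38), a growth-restraining MAGE protein, Osbpl5 (-1.62 ± 0.57), the amino acid transporter Slc38a4 (-1.57 ± 0.43) and the G protein subunit gene Gnas (-1.02 ± 0.24). The proteoglycan gene Dcn was higher (3.18 ± 0.54). The median of the 12 was -0.43, and 0 of them had passed the filter through day 0 only. In siWdr5 against nt 3 were higher, Osbpl5 (2.39 ± 0.85), H13 (1.37 ± 0.44) and Gnas (0.82 ± 0.27), with a median of 0.66. In siBard1 H13 (1.49 ± 0.43) and Cd81 (0.66 ± 0.17) were higher and Ube3a (-0.78 ± 0.24) was lower, and in siBrca1 Cd81 (0.59 ± 0.18) was higher and Dcn (-1.53 ± 0.38) was lower. In nt against Day06, H13 (-1.62 ± 0.43) and the zinc finger gene Plagl1 (-1.91 ± 0.62) were lower and Ube3a (0.76 ± 0.24) was higher. H13 stood at 66.1 ± 14.0 CPM in nt, 187.8 ± 27.8 in siBard1 and 201.4 ± 38.1 in Day06 (SD, n = 3 each), and Ube3a at 521.4 ± 79.2, 296.9 ± 25.3 and 304.8 ± 37.8 CPM. These calls are by edgeR at an adjusted p under 0.05, and the share of all genes called in each comparison is given above.

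Of 22 genes listed around IGF signalling, not all of them downstream of the ligand Igf2, 6 were tested. The catalytic subunit Pik3ca was lower at day 6 than at day 0 (-1.54 ± 0.56) and higher in siWdr5 than in nt (1.76 ± 0.62). The regulatory subunit Pik3r1 was higher than in nt in siWdr5 (2.84 ± 0.78) and in siBard1 (2.60 ± 0.81), where nt held 3 counts, and also in Mock (2.73 ± 0.80, edgeR, adjusted p = 0.0497). In siBrca1 0 of the 6 were called. In nt against Day06 1 of the 6 was, the kinase gene Akt1, lower at -1.95 ± 0.69 (edgeR, adjusted p = 0.0251, 6 and 29 counts), and the median of the 6 was -0.78, beside -0.01 over all tested genes. Cdkn1a (p21), the only tested member of a list of 6 CDK inhibitors and a p53 target, was higher in siWdr5 (1.05 ± 0.23), siBard1 (1.06 ± 0.23) and siBrca1 (0.86 ± 0.24) and lower in nt than in Day06 (-1.31 ± 0.22). Of 16 genes of imprint maintenance and DNA methylation, 5 were tested and 0 were called at day 6 against day 0 or in siWdr5, siBard1 or siBrca1 against nt, whereas in nt against Day06 the chromatin remodeller Hells was higher (1.47 ± 0.39) and the maintenance factors Uhrf1 (-1.24 ± 0.47) and Trim28 (-1.03 ± 0.36) were lower.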

How the data were processed

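Bulk CEL-Seq2 RNA-seq of reprogramming MEFs was deposited as 2 tables with a column per library, and the condition and replicate of a library were taken from its column name. The deposited counts are unnormalized UMI counts per gene, which the authors made by mapping to mm10 (GRCm38) with Bowtie2 and the CEL-Seq2 pipeline against GENCODE vM13. The deposited log2 table holds CPM on a log2 scale, for which the authors removed libraries of low quality, normalized and regressed the batch, and it served as an alternative only. Counts from 127 of 129 libraries, those in both tables, were used. The 2 others held 6403 and 7981 counts. Median depth was 64227, 63122 and 127079 counts in replicates 1, 2 and 3. Mock columns of 1 replicate share a name, and for the only Mock column with log2 values in replicate 3 the counts that correlated with it were taken (r = 0.987 against 0.0253).

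Counts were tested with edgeR 4.0.16 in R 4.3.3 (quasi-likelihood test, TMM scaling, filterByExpr by condition) in 1 model of all libraries with a term per condition and the replicate as a block, with 83 residual degrees of freedom, a common dispersion of 0.0158 and TMM factors of 0.825 to 1.39. Benjamini-Hochberg adjustment ran over the 3013 tested genes of a comparison, with a threshold of 0.05. A second fit held the 16129 genes with at least 10 counts. Standard errors follow from the fold change and the F statistic, and intervals are 95%. Counting intervals (exact Poisson or Clopper-Pearson) and floors of 3 counts cover counting error only. The labels give 1 sample per replicate number, which was read here as 1 sequenced pool. Deviations from the condition means correlated at a median of 0.0981 within a number and -0.0685 between numbers, which is why the block was used. Within replicates 1, 2 and 3 the median was 0.0579, 0.0861 and 0.22. The statistics were tested on simulated data.

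The 8 members and all gene lists were chosen with earlier results of these data known. Of the other lists, up to 6 genes per comparison were named, those with the largest log2 fold change among calls, and for each member the 3 genes with the most similar condition means (log2 CPM with a prior count of 2, replicate removed). Expected counts of an siRNA target were computed from its share of the counts in transfected libraries of that replicate without the siRNA. Alternatives were RLE size factors, DESeq2 1.42.0, the lower filter, no replicate term, limma 3.58.1 on the deposited log2 values, every library, the time course or the transfected libraries alone, nt with Mock as control, and leaving out each replicate. Gene positions came from GENCODE vM21 and promoter and microRNA sequences from RefSeq, both on GRCm38, the build of the files.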

Additional observations from a re-analysis of the deposited data

Results flagged for a closer look

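Among the Mock libraries, Mest had 1 count in 1 of 5 and none in the others, so that the gap of the highest library to the next made all of the range (ratio 1.0). Cdkn1c in Mock was at 99.3 CPM in 1 library of replicate 2 (4 counts) and at 25.8 to 34.3 CPM in the other 4, a gap of 0.884 of the range. Both lie over Dixon's 95% critical value of 0.71 for 5 samples, and both rest on a few counts. That value is meant for continuous measurements, and a count in only 1 library always gives 1.0, as for Mest. The test therefore cannot decide whether these libraries stand apart.

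The knockdown of Wdr5 differed from that of Bard1, in a direct edgeR test, in H19 (log2 difference 0.98), Igf2 (1.34) and Peg3 (1.19), and from that of Brca1 in H19 (0.80) and Igf2 (1.73), all higher in siWdr5. The siWdr5 libraries held 3553 to 4300 CPM of the 12 fibroblast markers, above siBard1 (1799 to 2890) and siBrca1 (1960 to 2666). The part of that difference in the members' levels was not tested.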

How the results depend on the processing

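The results most exposed to the model are the calls against nt. Of 26 named log2 fold changes, 26 stayed on their side of the threshold under RLE size factors, 22 under DESeq2 and 11 without the replicate block, where 15 were lost, and 8 under limma on the deposited log2 values, where 18 were lost. The 14 member-by-siRNA calls became 3 without the replicate block and 3 under limma, and 7 to 12 when a replicate was left out (7 without replicate 3, 12 without replicate 1). The replicate block pairs libraries of a sequenced pool.

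In the test over all days Grb10, H19, Igf2, Peg3 and Meg3 were called. Without the replicate block Igf2, Peg3 and Meg3 were, and under limma, whose table holds 7 members, Peg3 and Meg3. Meg3 passed the main filter only through day 0 and is left out of the counts of members above. In nt against day 6, where 2 were called, 1 was called (Igf2) under the lower filter, without the replicate block and under limma, and 1 in each case when a replicate was left out. The difference of H19 between day 6 and day 0 ran from -0.68 to 0.04 when a replicate was left out, and reversed to 0.035 without replicate 2. The causes of these changes were not tested.

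Igf2 in siWdr5 (2.10 to 3.05) and in sip53 (1.70 to 2.62), Meg3 (-4.31 to -3.47) and Peg3 (-2.14 to -1.79) at day 6 against day 0, and Igf2 in nt against day 6 (-1.88 to -1.48) passed under every alternative run. Meg3 passed the main filter only through day 0, and all alternatives but the lower filter and limma used such a filter. RLE size factors moved the median of all genes by -0.16 at day 6 against day 0, by -0.14 in nt against day 6 and by 0.17 in siWdr5 against nt, and changed the direction of no named member. With at most 5 counts of Mest and 2 of Dlk1 in a library, depth limits what these genes can show.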
